A study of Mus musculus with 8 samples.

Results

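The genes described are 8 mouse genes that make or move lipoprotein particles of the brain: Apoe, Clu, Abca1, Abcg1, Lrp1, Lpl, Apod and Lcat. They were taken by gene symbol, and all 8 were found once among the 54232 genes listed for every library; 37971 of those genes had at least 1 unique molecular identifier (UMI, 1 counted RNA molecule) in the nuclei kept. RNA was counted in single nuclei from a 2 mm cube of forebrain next to the lesion site of male Swiss Webster mice aged 10 weeks. There were 4 groups of 2 libraries, labelled biological replicates 1 and 2: control surgery, BCAS alone, TBI alone, and both operations (BCAS+TBI). TBI is traumatic brain injury; the labels do not spell out BCAS, and the series title names cerebral hypoperfusion. The sources used here do not give the time between surgery and dissection, what the control operation consisted of, or whether a library pools several mice. The study's question was whether reduced blood flow to the brain worsens the injury.

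Lipid moves between brain cells on small particles that carry apolipoproteins. Apoe and Clu (apolipoprotein J) are the main ones made inside the brain, and Apod is a smaller carrier of the lipocalin family. The membrane pumps Abca1 and Abcg1 load cholesterol and phospholipid onto these particles, Lcat esterifies the cholesterol they carry, Lpl cuts triglyceride on lipoproteins, and the receptor Lrp1 takes up Apoe-containing particles.

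Each library gave 28118725 to 56135192 UMIs in 6191 to 7882 barcodes, against a stated target capture of about 3000 droplets a sample. After filtering, 45560 nuclei remained, 5049 to 7157 a library, and pairs of libraries shared 5 to 20 barcodes. The libraries fell into 2 sets by total UMIs, each with 1 library of every group. The low-UMI set (control 1, BCAS 1, TBI 1 and BCAS+TBI 2) had 28118725 to 33363564 UMIs, 1.2 to 2.77% mitochondrial and 0.444 to 0.785% ribosomal-protein UMIs; the high-UMI set had 42651388 to 56135192 UMIs, 0.511 to 1.04% and 0.168 to 0.219%. Because the sets run across all 4 groups, surgery effects on the members are given without and with the set in the model. The labels name no batch.

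Nuclei were grouped by clustering without the 8 genes or any other lipid gene listed below, and clusters were named from marker genes. There were 12 classes, each present in every library: 3307 astrocyte-like, 2502 oligodendrocyte-like, 1106 oligodendrocyte precursor-like, 709 microglia-like, 1176 endothelial-like, 479 mural-like, 939 fibroblast-like, 347 choroid plexus-like, 334 ependymal-like, 3836 inhibitory neuron-like and 1304 striatal projection neuron-like nuclei. A further 15 clusters with 18047 nuclei were high in the glutamate transporter genes Slc17a7 or Slc17a6, and 82.2% of these nuclei passed a marker gate on the single nucleus. The clusters are called Slc17a7/Slc17a6-positive because only these 2 markers define them. For non-neuronal nuclei the gate asked for at least 2 detected markers, and more than for any other non-neuronal class. It was passed by 42.4% of fibroblast-like and 44% of ependymal-like nuclei, the lowest shares of the 12 classes. The other 11474 nuclei (25.2%) were left unnamed and out of class comparisons: 6756 because no class passed, 2083 because haemoglobin genes led the cluster, 2082 for high doublet scores and 553 for markers of 2 classes. Levels are in CPM, the UMIs of a gene divided by all UMIs of the class in a library and scaled to 1000000, given as mean ± SD over 8 libraries unless stated; the SD includes the difference between the sets. Levels of different genes are not ranked against one another, since nuclear UMI counts can depend on gene length, which was not tested for these levels. Ratios and ranges of genes are only set side by side between classes or clusters.

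On GRCm38, as annotated in GENCODE vM21, the members lie on 7 chromosomes and their spans from first to last annotated base differ widely. Apoe (ENSMUSG00000002985) covers chr7:19696109-19699188, 3080 bases, and Lcat (ENSMUSG00000035237) chr8:105939551-105943382, 3832 bases. Clu (ENSMUSG00000022037) covers chr14:65968483-65981547, 13065 bases, Apod (ENSMUSG00000022548) chr16:31296192-31314808, 18617 bases, and Lpl (ENSMUSG00000015568) chr8:68880491-68907448, 26958 bases. The 3 longest are Abcg1 (ENSMUSG00000024030) at chr17:31057675-31117988, 60314 bases, Lrp1 (ENSMUSG00000040249) at chr10:127538161-127621148, 82988 bases, and Abca1 (ENSMUSG00000015243) at chr4:53030787-53159895, 129109 bases. Abcg1 overlaps Gm25447 on its own strand, and Lrp1 and Lcat overlap Gm16217 and Gm16156 on the other strand, so counts of these 3 members could include reads of the overlapping genes if counting did not separate them.

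Apoe was highest in astrocyte-like nuclei, at 8947 ± 4903 CPM. These nuclei held 38.4% of all Apoe UMIs while making up 7.26% of nuclei. The unnamed nuclei, 25.2% of nuclei, held 40.4% of Apoe UMIs and are outside this order of classes. Ependymal-like nuclei came next at 2667 and fibroblast-like nuclei followed at 1459; each step down was seen in 8 of 8 libraries. The exact two-sided paired sign-flip permutation test over libraries gave an adjusted p of 0.0344 for each. Adjustment was over the 88 neighbouring pairs tested for the 8 genes, and the smallest unadjusted p that the test can give is 0.00781. Here and for the other members, neighbouring pairs were picked by the same levels that were tested. The p-values do not allow for that choice. Fibroblast-like and oligodendrocyte precursor-like nuclei (1436) did not differ beyond their spread, and microglia-like (1254), endothelial-like (1081) and oligodendrocyte-like nuclei (1074) were close below. Choroid plexus-like (644) and mural-like nuclei (617) also did not differ beyond their spread.

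**Figure D1:**
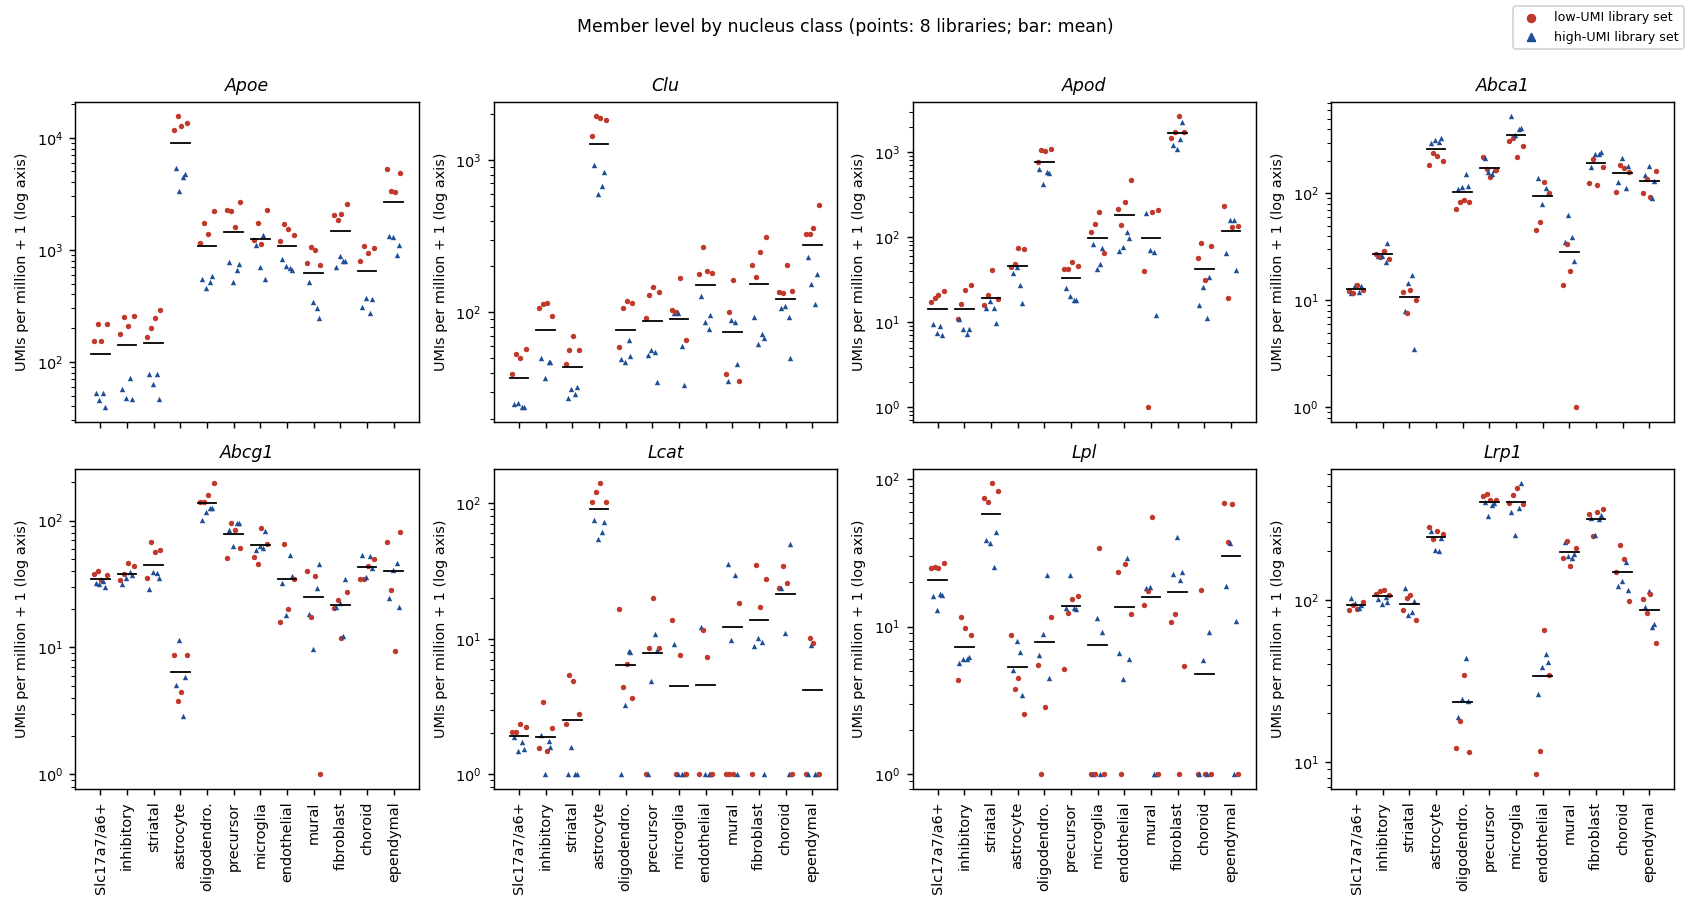
Level of each member (CPM plus 1, log axis) in 12 nucleus classes; points are the 8 libraries, marked by library set, and bars are means. Apoe, Clu and Lcat peak in astrocyte-like nuclei, Apod in fibroblast-like and oligodendrocyte-like nuclei, and Abcg1 is lowest in astrocyte-like nuclei.

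In the 3 neuronal classes Apoe stood at 115 to 145 CPM, between 1.21% and 1.59% of the astrocyte-like level of the same library on average. The median of 8 astrocyte marker genes (such as the water channel gene Aqp4 and the gap junction gene Gja1) in those classes was 0.784% to 0.893% of their astrocyte-like level, with single markers from 0.289% (Acsbg1) to 23.4% (Slc4a4). Among Slc17a7/Slc17a6-positive nuclei 42.5% had an Apoe UMI, at a median of 6341 UMIs a nucleus, against 98.2% of astrocyte-like nuclei at a median of 1872. After thinning every nucleus to 500 UMIs the shares were 6.5% and 86.3%. How much of the neuronal Apoe signal is free RNA was not tested. Apoe in oligodendrocyte-like nuclei was 11.9% of the astrocyte-like level, where the marker median was 2.7%, and in microglia-like nuclei 16.3%, where it was 3%, although the marker Slc1a3 stood at 28.7% there (9.06 to 86.3% over libraries). The marker median was higher in ependymal-like nuclei, at 12%, beside 29.3% for Apoe and 21.8% for Clu. In fibroblast-like nuclei it was 10.9%, beside 17.3% for Apoe and 11.5% for Clu.

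Clu also peaked in astrocyte-like nuclei, at 1263 ± 569 CPM, with ependymal-like nuclei next at 274 and fibroblast-like nuclei at 153. The first 2 steps held in 8 of 8 libraries (exact sign-flip permutation test, adjusted p = 0.0344 for each). Astrocyte-like nuclei held 32.5% of all Clu UMIs, and the unnamed nuclei 37.8%. Clu differed from Apoe in neurons: in inhibitory neuron-like nuclei it reached 75.4 CPM, 6% of its astrocyte-like level (5.16 to 7.36% over libraries), where Apoe stood at 1.45% (0.952 to 1.91%). The ranges of the 2 genes over libraries did not overlap. The ratio of Apoe to Clu UMIs was 6.78 ± 1.03 in astrocyte-like nuclei and 1.68 ± 0.584 in inhibitory neuron-like nuclei.

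Apod had another distribution. It was highest in fibroblast-like nuclei at 1699 ± 531 CPM, then in oligodendrocyte-like nuclei at 769 ± 262, and then in endothelial-like nuclei at 180; both steps held in 8 of 8 libraries (exact sign-flip permutation test, adjusted p = 0.0344). Astrocyte-like nuclei had 44.8 and the Slc17a7/Slc17a6-positive nuclei 13.2. The unnamed nuclei held 48% of all Apod UMIs. A UMI of Apod was found in 72.5% of fibroblast-like and 51.9% of oligodendrocyte-like nuclei, against 7.58% of Slc17a7/Slc17a6-positive nuclei at several times their depth; after thinning to 500 UMIs the shares were 45.7%, 25% and 0.837%.

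The 2 pumps did not share a distribution. Abca1 was highest in microglia-like nuclei (352 ± 94.2 CPM) and astrocyte-like nuclei (261 ± 55.3). The step between them was seen in 7 of 8 libraries and missed the threshold (exact sign-flip permutation test, adjusted p = 0.055). Astrocyte-like nuclei stood above fibroblast-like nuclei (190) in 8 of 8 libraries (adjusted p = 0.0344, the same exact test), and the 3 neuronal classes had the lowest means, at 9.72 to 26.0. Mural-like nuclei (27.5, from 19 UMIs) did not differ beyond their spread from inhibitory neuron-like nuclei (adjusted p = 0.815, the same exact test).

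Abcg1 was highest in oligodendrocyte-like nuclei (137 ± 29.5 CPM), above their precursors (77.9) in 8 of 8 libraries (exact sign-flip permutation test, adjusted p = 0.0344). Astrocyte-like nuclei were lowest of the 12 classes, with 37 UMIs in all 8 libraries together and 5.38 ± 2.96 CPM (1.9 to 10.4). That was below the next lowest class, fibroblast-like nuclei at 20.6, in 8 of 8 libraries (adjusted p = 0.0344, the same exact test). The neuronal classes had 33.5 to 43.9. An Abcg1 UMI was found in 20.2% of Slc17a7/Slc17a6-positive and 1.12% of astrocyte-like nuclei, at median depths of 6341 and 1872 UMIs, and in 1.74% and 0.242% after thinning to 500 UMIs.

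Lcat, the cholesterol-esterifying enzyme, was an astrocyte-like transcript: 90.2 ± 30 CPM there against 20.3 in choroid plexus-like nuclei, the next class (8 of 8 libraries, exact sign-flip permutation test, adjusted p = 0.0344). It was sparse elsewhere. Only 1392 Lcat UMIs were counted in all, 43.3% of them in astrocyte-like and 39.2% in unnamed nuclei. No step between lower neighbours passed the test.

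Lrp1, the uptake receptor, was broad. Oligodendrocyte precursor-like (401 ± 35.3 CPM) and microglia-like nuclei (399 ± 85.1) did not differ beyond their spread (adjusted p = 0.857, exact sign-flip permutation test), and the order of this pair reversed when doublets were kept. Fibroblast-like nuclei had 314 and astrocyte-like nuclei 243, a step that held in 8 of 8 libraries (adjusted p = 0.0344, the same exact test). Neuronal classes lay between 92 and 104. Oligodendrocyte-like nuclei had the lowest mean, 22.4 ± 11.1, which did not differ beyond its spread from endothelial-like nuclei (33.0 ± 18.5, adjusted p = 0.353 by the same exact test).

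Lpl was highest on average in striatal projection neuron-like nuclei, at 57 ± 24.9 CPM, with ependymal-like nuclei at 29.2; the step was seen in 7 of 8 libraries and missed the threshold (exact sign-flip permutation test, adjusted p = 0.055). The ependymal-like level rests on 31 UMIs and ran from 0 to 67.2 over libraries. The step was 1.94 on the log2 scale, and 5.17 in nuclei that passed the marker gate. No step in the Lpl order passed the test. The mean of 19.5 over Slc17a7/Slc17a6-positive nuclei covered a wide spread between their 15 clusters. Cluster 20, led by Ccbe1, Shisa6 and Grik4, had 97.4 ± 26.1 CPM (795 nuclei, 66.7 to 134 over libraries), and cluster 18, led by Ndst4, Stac and Epha6, had 61.8 ± 32.7. Clusters 6, 7 and 15 exceeded 20 CPM, 9 clusters stayed under 10, and cluster 34 had no Lpl UMI in 141 nuclei, which allows a share of up to 2.13% of nuclei with a UMI (counting error only). By comparison, Lrp1 ran from 72.1 to 201, Clu from 21.2 to 51.9 and Apoe from 85.1 to 225 over the same clusters. These clusters were made without Lpl, and the order among them was not tested.

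**Figure D2:**
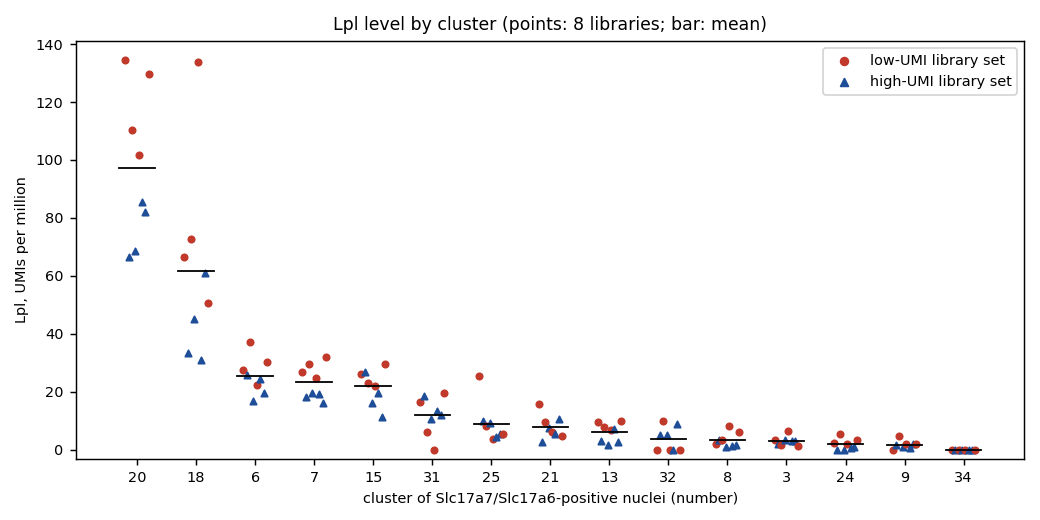
Lpl level (CPM) in the 15 clusters of Slc17a7/Slc17a6-positive nuclei, ordered by mean; points are the 8 libraries, marked by library set, and bars are means. In cluster 20 all 8 libraries lie between 66.7 and 134, while 9 clusters have means under 10.

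The astrocyte-like class held 2 clusters that differed in 4 members: cluster 5 (2296 nuclei), whose leading genes were Aqp4 and Gfap and also included Clu and Apoe, and cluster 19 (1011 nuclei), led by Slc6a11, Itih3 and Agt. Cluster 5 had 10410 ± 5566 CPM of Apoe against 5083 ± 3055 in cluster 19, and Clu stood at 1537 ± 676 against 543 ± 229. Lcat was also higher in cluster 5, at 102 against 57.3, while Lrp1 was higher in cluster 19, at 299 against 222. Each of these held in 8 of 8 libraries (exact sign-flip permutation test over libraries, adjusted p = 0.0139 over 16 such tests). Abca1 did not differ beyond its spread (251 against 286, adjusted p = 0.333 by the same exact test). Within the fibroblast-like class, cluster 23 exceeded cluster 33 in Apod (2297 against 443), Apoe (1829 against 671), Abca1 (225 against 116) and Lrp1 (362 against 207), and Clu was higher in cluster 33 (239 against 113). All 5 held in 8 of 8 libraries with adjusted p = 0.0139 (the same exact permutation test). The clusters were compared after their values had been seen, and genes that vary with the members helped to form them.

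In astrocyte-like nuclei the low-UMI libraries had 11809 (control), 15519 (BCAS), 12784 (TBI) and 13487 (BCAS+TBI) CPM of Apoe, and the high-UMI libraries 5416, 3356, 4440 and 4762 in the same order of groups. The sets did not overlap, and their means differed 2.98-fold. With the set added to the 4 groups, edgeR gave a log2 difference (high minus low set) of -1.59 (SE 0.12, adjusted p = 6.88e-08, Benjamini-Hochberg over 95149 class-gene pairs). Apoe was lower in the high-UMI set in all 12 classes, from -0.85 in microglia-like to -1.96 in ependymal-like nuclei. The sets overlapped only in microglia-like nuclei. The share of all class-gene pairs without overlap between the sets was not counted, so this is a description only.

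**Figure D3:**
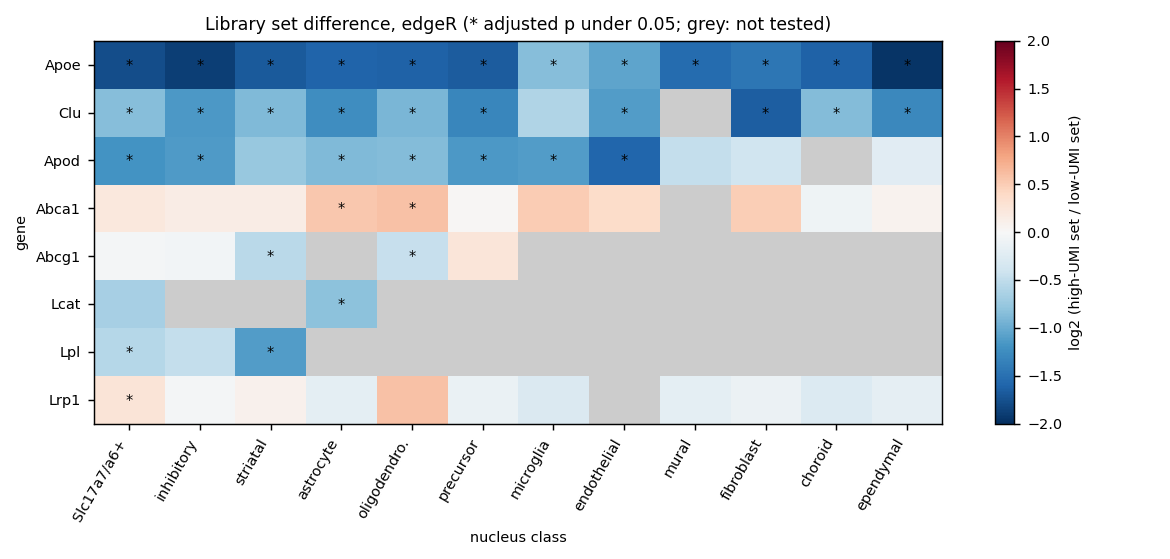
Log2 difference between library sets (high over low) for each member and class; stars mark edgeR adjusted p under 0.05 and grey cells were not tested. The Apoe row is lower in the high-UMI set throughout, from -0.85 to -1.96, while Abca1 is higher in astrocyte-like and oligodendrocyte-like nuclei.

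Clu was lower in the high-UMI set in all 11 tested classes and passed in 10, with a log2 difference of -1.24 (SE 0.13) in astrocyte-like nuclei, where the low set had 1440 to 1926 and the high set 596 to 930 CPM. Apod was lower in all 11 and passed in 7, and its largest difference was -1.59 (SE 0.25) in endothelial-like nuclei. In fibroblast-like nuclei, its highest class, Apod differed by -0.39 (SE 0.20), which did not pass (edgeR adjusted p = 0.158); without BCAS+TBI 1 or without BCAS+TBI 2 it passed, at -0.58 and -0.59 (adjusted p = 0.0331 and 0.0336). Lpl was lower in all 3 tested classes and passed in 2, with -1.12 (SE 0.19) in striatal projection neuron-like nuclei, and Lcat was lower in both tested classes and passed in 1, with -0.82 (SE 0.16) in astrocyte-like nuclei.

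Abca1, the longest member, was called in the other direction in 2 of 11 classes. It was higher in the high-UMI set in astrocyte-like nuclei, at 297 to 328 against 183 to 240 CPM, a log2 difference of 0.54 (SE 0.11, edgeR adjusted p = 0.00104). In oligodendrocyte-like nuclei it differed by 0.59 (SE 0.17, edgeR adjusted p = 0.0142). In microglia-like nuclei, its highest class, it differed by 0.51 (SE 0.21, edgeR adjusted p = 0.0691). That difference ran from 0.42 to 0.68 as single libraries were left out, so the missed threshold is not firm. Abcg1 was lower in 4 of 5 classes and passed in 2, with -0.47 (SE 0.16, edgeR adjusted p = 0.0301) in oligodendrocyte-like nuclei; this call was lost when any 1 library was left out (adjusted p 0.0522 to 0.202). Lrp1 passed in 1 of 11 classes, Slc17a7/Slc17a6-positive nuclei, with 0.25 (SE 0.06); its plain levels there overlapped, at 85.9 to 95.9 in the low and 88.6 to 101 in the high set.

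In all, 37 of the 66 member pairs tested (a member in a class) passed, 34 lower and 3 higher in the high-UMI set, where over all 95149 pairs 31.3% passed, 17.3% lower and 14% higher. The median log2 difference was -0.63 over member pairs and -0.00 over all pairs. Normalization moved the class medians by -0.19 to 0.15 against plain CPM, and none of the 37 calls has the other sign in plain levels. Gene span moved with the set difference: over all genes tested, Spearman's rho between span and log2 difference was 0.248 to 0.621 in the 12 classes (1950 to 20230 genes each, not independent of one another). The median was -1.05 to -0.37 for genes under 20000 bases and 0.13 to 0.41 for genes of 100000 bases or more. The share of the set difference that goes with span, ribosomal or mitochondrial RNA was not tested for the members.

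**Figure D4:**
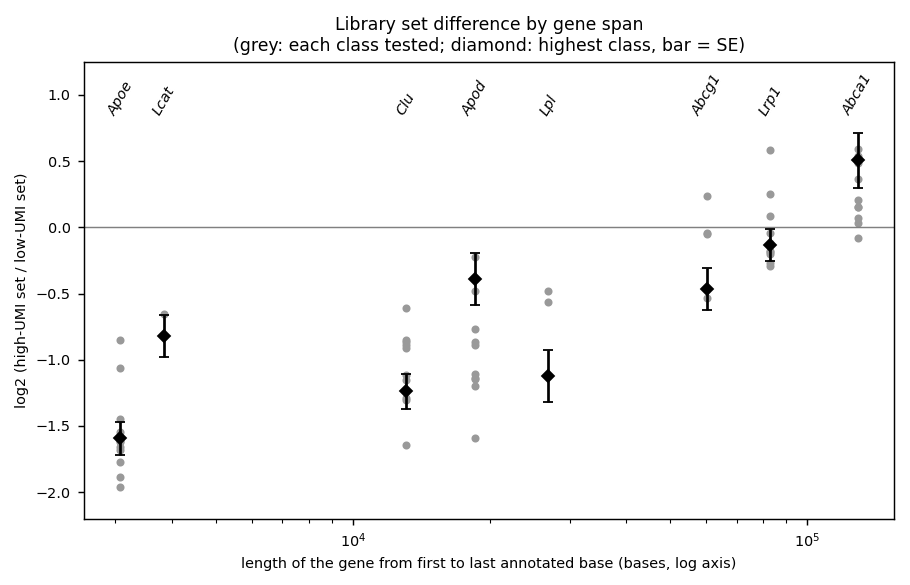
Log2 difference between library sets (high over low) against the member's span in bases (log axis); grey points are classes tested, diamonds the class where the member is highest, with SE bars. Apoe at 3080 bases stands at -1.59 in astrocyte-like nuclei. Abca1 at 129109 bases stands at 0.51 in microglia-like nuclei, which did not pass (edgeR adjusted p = 0.0691), and runs from -0.08 to 0.59 over its tested classes.

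No member passed the threshold in any surgery comparison. There were 7: the TBI effect averaged over BCAS, the BCAS effect averaged over TBI, each of the 3 operated groups against control, both operations against TBI alone, and the interaction. In edgeR 0 of 66 member pairs passed in each, and so did 0% of all 95149 pairs. DESeq2 also called 0 member pairs. At an unadjusted p under 0.05 there was 1 member pair for TBI against control (1.12% of all pairs) and 1 for both operations against TBI alone (1.1%), Lrp1 in oligodendrocyte-like and Clu in microglia-like nuclei. There were 0 for the TBI effect (1.28%), the BCAS effect (1.3%), BCAS against control (1.44%), both operations against control (1.26%) and the interaction (1.29%).

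With the library set in the edgeR model 0 of 66 member pairs passed again in each. Of all pairs 0.00525% passed for the TBI effect, 0.142% for the BCAS effect, 0.0483% for TBI, 0.167% for BCAS and 0.082% for both operations against control, 0.0746% for both operations against TBI alone and 0.107% for the interaction. At an unadjusted p under 0.05 there were then 4 member pairs for the TBI effect (4.71% of all pairs), 3 for the BCAS effect (4.24%), and 7, 5 and 3 for TBI (4.15%), BCAS (5.01%) and both operations (4.08%) against control. Both operations against TBI alone gave 6 (4.4%) and the interaction 3 (5.02%).

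**Figure D5:**
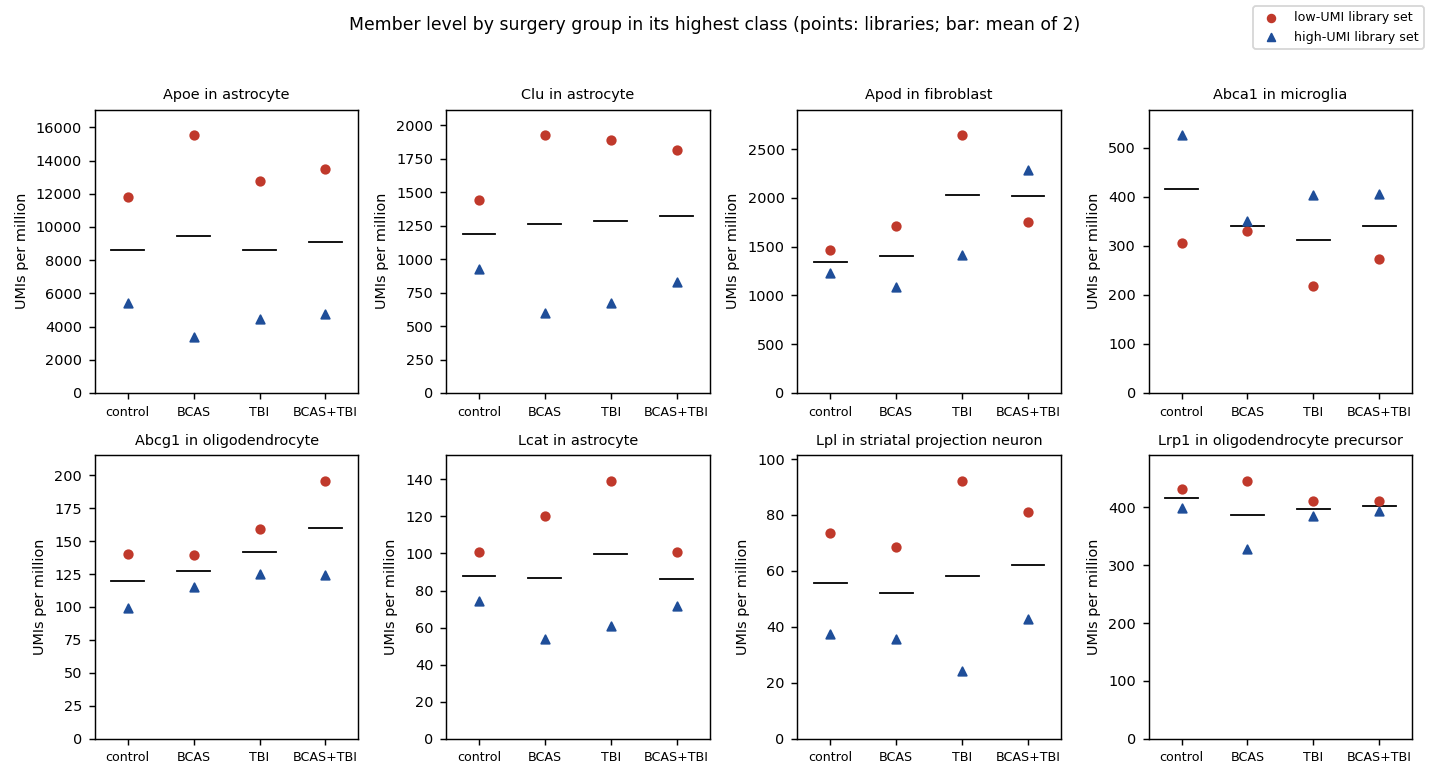
Level of each member (CPM, from 0) in its highest class by surgery group; points are the 2 libraries of a group, marked by library set, and bars their mean. Within each group the Apoe points lie far apart (for control 11809 and 5416), since every group holds 1 library of each set.

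Apoe in astrocyte-like nuclei had a mean of 8613 ± 4521 CPM (SD, 2 libraries) for control, 9438 ± 8600 for BCAS, 8612 ± 5900 for TBI and 9125 ± 6170 for both operations. The TBI effect was -0.00 (SE 0.56) on the log2 scale and 0.01 (SE 0.12) with the set in the model. The BCAS effect was 0.10 (SE 0.56) and -0.03 (SE 0.12), so these libraries bound a common Apoe change more closely once the sets are separated. Clu in the same nuclei gave TBI effects of 0.11 (SE 0.45) and 0.07 (SE 0.13) and BCAS effects of 0.06 (SE 0.45) and -0.01 (SE 0.13).

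Among the pumps, Abca1 in microglia-like nuclei had a TBI effect of -0.23 (SE 0.27) and -0.20 (SE 0.21) with the set, and Abcg1 in oligodendrocyte-like nuclei 0.30 (SE 0.24) and 0.26 (SE 0.16). Lcat in astrocyte-like nuclei had 0.13 (SE 0.33) and 0.11 (SE 0.16), Lpl in striatal projection neuron-like nuclei 0.19 (SE 0.41) and 0.12 (SE 0.19), and Lrp1 in oligodendrocyte precursor-like nuclei 0.02 (SE 0.18) and 0.02 (SE 0.12). The BCAS effects of these 5 members in these classes lay between -0.15 and 0.12 without the set and between -0.15 and 0.15 with it. Several of these effects change sign between settings, and none can be read as a direction.

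The smallest p for the TBI effect belonged to Apod. In fibroblast-like nuclei the low-UMI libraries had 1463 (control), 1714 (BCAS), 2641 (TBI) and 1750 (BCAS+TBI) CPM and the high-UMI libraries 1228, 1088, 1417 and 2290. In each set both TBI-operated libraries lay above both others, in the low-UMI set only narrowly (1750 against 1714). Without regard to the sets, TBI-operated and other libraries overlapped, and the share of all pairs with this order within sets was not counted. The order within sets was the same in cluster 23 of this class, but in cluster 33 the TBI-operated libraries of the high-UMI set were lower (289 and 254) than the other 2 (376 and 444). The log2 difference was 0.56 (SE 0.27, edgeR adjusted p = 1), and 0.57 (SE 0.20, adjusted p = 0.956) with the set. Endothelial-like nuclei gave 0.98 (SE 0.50, adjusted p = 1) and 0.81 (SE 0.25, edgeR adjusted p = 0.778) with the set, and this difference turned to -0.04 at the finer clustering without the set. Abcg1 in inhibitory neuron-like nuclei was the third (0.26, SE 0.14, and 0.24, SE 0.11, with the set). For the BCAS effect the 3 smallest were Abca1 in choroid plexus-like (0.50, SE 0.26) and fibroblast-like nuclei (0.40, SE 0.24) and Clu in microglia-like nuclei (-0.64, SE 0.39), and with the set 0.52 (SE 0.26), 0.42 (SE 0.19) and -0.60 (SE 0.35), each with an edgeR adjusted p of 1.

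The smallest p of any surgery comparison was for Apoe in oligodendrocyte precursor-like nuclei with the set in the model, a result picked out after its values were seen. The low-UMI libraries had 2287 (control), 2227 (BCAS), 1595 (TBI) and 2691 (BCAS+TBI) CPM, and the high-UMI libraries 781, 516, 652 and 743. In each set the BCAS+TBI library lay above the TBI library while the BCAS library lay below the control. For the BCAS library this was narrow in the low-UMI set (2227 against 2287). The interaction was 0.79 on the log2 scale (SE 0.20, edgeR adjusted p = 0.12). The difference ranged from 0.51 to 1.05 and the adjusted p from 0.00562 to 1 as single libraries were left out, passing without BCAS 1, without TBI 2 and without BCAS+TBI 1. Without the set in the model the same interaction was 0.81 (SE 0.99, edgeR adjusted p = 1). Apoe was not alone in these nuclei: with the set, 78 of 8043 genes tested there passed for the interaction. Over all classes 102 of 95149 pairs passed. At an unadjusted edgeR p under 0.05 there were 782 genes in precursor-like nuclei. How many other genes showed the same order of libraries was not counted.

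The set-adjusted fit left 1 call among the 86 other lipid genes listed for comparison, of which 74 were tested in at least 1 class. Lrp1b, a large receptor of the same family as Lrp1, was higher in BCAS than control in microglia-like nuclei (log2 difference 1.97, edgeR adjusted p = 0.00804). This was 1 of 431 pairs over the 8 lists (0.232%), where 0.167% of all pairs passed, and in microglia-like nuclei 1.06% of all 3762 genes tested passed in that comparison. Lrp1b had its highest level in oligodendrocyte-like nuclei, at 4961 CPM. Without the set no listed gene passed in any comparison. For the TBI effect without the set, median log2 differences ran from -0.02 to 0.03 over 7 of the 8 lists, and the other apolipoproteins, with only 5 pairs tested, had a median of 0.42; the members' own median was 0.12, and 0.07 with the set.

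By class, 15 of 18 cholesterol synthesis genes had their highest mean in astrocyte-like nuclei, as did Apoe and Lcat. Among them were Msmo1 (262 ± 65 CPM) and Hmgcs1 (111 ± 23.9), against 87.5 and 55.8 in oligodendrocyte-like nuclei, the next class. Margins were narrower for others, such as Cyp51 (111 against 89.8) and Dhcr7 (46 against 38.9), over the same next class. The class ranks of listed genes were not tested, and the share of all genes highest in astrocyte-like nuclei was not counted. Of 9 other ABC lipid transporters 3 were highest in oligodendrocyte-like nuclei, led by Abca2 (405 ± 58.2), 3 in microglia-like nuclei, led by Abca9 (497 ± 180), and none in astrocyte-like nuclei. Pltp, the phospholipid transfer protein, was highest in endothelial-like nuclei (1070 ± 276). Of 11 other apolipoproteins with a UMI only Apold1 and Apoc3 reached a class mean of 10 CPM, and Apoc3 ranged from 0 to 160 over libraries in its highest class. Between the library sets, 66 of 431 pairs over the 8 lists (15.3%) were lower and 25 (5.8%) higher in the high-UMI set, beside 17.3% and 14% of all pairs. Of the 25 higher calls 16 were among the 74 pairs of lipoprotein receptors.

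RefSeq promoter windows of 300 bases on GRCm38 were available for 5 members (Apoe, Abca1, Lrp1, Apod and Lcat). Liver X receptors, which are known to drive Apoe and the Abca1 and Abcg1 pumps, bind paired AGGTCA half-sites with 4 bases between them. No window of the 5 held AGGTCA on either strand, or the paired form with up to 2 mismatches, where 16.3% and 3.02% of 32851 mouse promoter windows did. With 5 members at such low shares, finding none says little. Sequence outside the 300 bases was not searched and Abcg1 had no window, so no conclusion about these receptors is drawn.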

How the data were processed

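Single-nucleus 3′ RNA libraries were counted by the authors with Cell Ranger 7.0.0 on GRCm38 (mm10), per the submitters' processing notes; the deposited values are raw UMI counts per gene and barcode. Whether intronic reads were counted is not given in the sources used here. Barcodes needed 500 UMIs, 300 genes and no more than 5% mitochondrial UMIs; the top 6% by Scrublet score were removed per library, because Scrublet's own threshold marked almost none in 7 libraries. Nuclei were clustered (scanpy 1.11.5, Leiden resolution 1, 3000 variable genes, 30 components) and clusters named from at least 3 markers, or for neurons from the levels and ratio of the Slc17a7/Slc17a6 and inhibitory markers; the naming limits were set after seeing the clusters. UMIs were summed per class and library and tested with edgeR 4.0.16 (quasi-likelihood, TMM, filterByExpr minimum count 10), Benjamini-Hochberg over all class-gene pairs, threshold 0.05; DESeq2 1.42.0 was an alternative. Class order used exact sign-flip permutation on log2(level + 1). The labels call the libraries biological replicates; if they are not from separate animals, the p-values measure only the spread between libraries. Intervals and spreads for counts cover these 8 libraries only. The named genes were the 8 members in every class, each in its highest class and the 3 smallest p per averaged contrast, up to 2 genes per list, and the closest genes by class pattern. The members and lists were chosen with earlier results of these data known. The edgeR step was tested on simulated data.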

Additional observations from a re-analysis of the deposited data

How the results depend on the processing

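The number of class-gene pairs past the threshold in surgery comparisons moved with the model. In the order TBI effect, BCAS effect, the TBI, BCAS and BCAS+TBI groups each minus control, BCAS+TBI minus TBI, and interaction, it was 0 throughout without a block, 43, 149, 27, 116, 96, 35 and 64 with no low-count filter, and 5, 135, 46, 159, 78, 71 and 102 with the library set as a block. In the same order DESeq2 called 0, 1, 2, 14, 2, 1 and 11. Nuclei with at least 1000 UMIs gave 2 for BCAS minus control. As single libraries were left out the count was 0 to 1 for the TBI effect, 0 to 3, 0 to 11 and 0 to 12 for the 3 groups minus control, and 0 to 7 for the interaction. Member pairs stayed at 0, except that with the set block the interaction had 0 to 1 as libraries were left out. DESeq2 called 17313 pairs between the library sets, against 29756.

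None of the effects in this paragraph passed a test, and several changed sign; the cause was not tested. Apoe in astrocyte-like nuclei had a TBI effect of 0.22 with the replicate block, 0.0093 with the set block, 0.022 at 1000 UMIs, 0.0021 with doublets kept and 0.00027 with the marker gate, and a BCAS effect of -0.030 with the set block, where Clu had -0.012. Abca1 in microglia-like nuclei had a BCAS effect of 0.045 with doublets kept and 0.10 without high-UMI nuclei. Lrp1 in precursor-like nuclei had a TBI effect of -0.0016 without high-UMI nuclei and a BCAS effect of 0.0070 with doublets kept and 0.0046 at resolution 2. Lpl in striatal projection neuron-like nuclei had a BCAS effect of 0.087 with the replicate block and 0.061 with the set block. Apod had a BCAS effect of -0.076 at 1000 UMIs in fibroblast-like nuclei and a TBI effect of -0.044 at resolution 2 in endothelial-like nuclei.

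As single libraries were left out, the TBI and BCAS effects ran from -0.49 to 0.72 and -0.62 to 0.59 for Apoe, -0.36 to 0.63 and -0.46 to 0.53 for Clu, -0.26 to 0.45 and -0.46 to 0.24 for Lcat, -0.42 to 0.51 and -0.37 to 0.56 for Lpl, and -0.060 to 0.086 and -0.11 to 0.032 for Lrp1. BCAS effects ran from -0.25 to 0.18 for Abca1, -0.063 to 0.29 for Abcg1 and -0.14 to 0.30 for Apod in fibroblast-like nuclei.

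The log2 step from the highest to the next class moved to 2.50 (marker gate) and 1.36 (without high-UMI nuclei) for Apoe, 5.17 for Lpl and 1.77 for Apod (marker gate), and -0.39 for Lrp1 with doublets kept (-0.020 to 0.094 as libraries were left out). Replicate numbers did not pair the libraries: deviations correlated at 0.403 to 0.419 among control, BCAS and TBI and at -0.443 to -0.433 with BCAS+TBI, and the library set block is the crossed pairing.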

Other observations

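The genes whose levels over the 12 classes were most like a member's (Pearson's r of log2 levels over classes, 8443 genes compared, a description with no test) included astrocyte genes for Clu, with Fgfr3 at 0.973 and the water channel gene Aqp4 at 0.965. Apoe was closest to the lipid phosphatase gene Plpp3 (0.927). Abca1 was closest to the lysosomal fucosidase gene Fuca1 (0.953) and the lysosomal membrane gene Lamp2 (0.938). Apod was closest to Ptgds, another lipocalin gene (0.964), and Lpl to Tmem158 (0.937). Lower values were reached by Lrp1 (Pid1, 0.871) and Abcg1 (Slc25a13, 0.82).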
